A study of Mus musculus with 2 samples.

Results

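Spliceosomal snRNA fragments are the short reads that come from U1, U2, U4, U5, U6 and the RNAs of the minor spliceosome. A sequenced tag of 18 to 44 nt was a member when it was identical, in sense, to a transcript of the snRNA biotype in GENCODE M21 (mouse build GRCm38) and to no named miRNA hairpin, and it was counted once whatever number of gene copies it fitted. By this rule 2427 of 1858314 distinct tags were snRNA fragments, 1375 in CD11c+Ia high cells (Ia_high) and 1630 in CD11c+Ia low cells (Ia_low), with 578 seen in both. The study sequenced small RNA from C57BL/6J mouse spleen cells that the labels call dendritic cells in both groups, with no treatment named. CD11c is the integrin used to enrich dendritic cells, and Ia is an MHC class II molecule that presents peptides to T cells. Cells were enriched on CD11c beads, stained with a FITC-labelled antibody to Ia and sorted on a MoFlo instrument to over 95% purity, so the groups differ by the Ia gate.

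Each group is 1 library, which leaves no replicate check on any difference and no test between groups. Ratios below are Ia_low over Ia_high, from reads per 1000000 reads of the library (RPM), with an exact (Clopper-Pearson) 95% interval that covers counting error only, since amplified reads without molecular identifiers are not independent molecules. "Called" means at least 2-fold with an interval that excludes 1. Fragments of MHC class II mRNAs, scaled per 1000000 mRNA fragments, were more frequent in Ia_high (10810 against 6405 over 4 genes), as were those of 4 conventional dendritic cell genes (793 against 90.0, with Xcr1 at 0 in Ia_low), whereas 3 monocyte and macrophage genes stood at 1407 in Ia_high and 4155 in Ia_low. B cell genes (4) stood at 52.5 and 37.5, neutrophil genes (2) at 12.3 and 22.5, plasmacytoid genes (2) at 55.5 and 60.0, NK cell genes (2) at 0 and 15.0 and erythroid genes (3) at 21.6 and 0, and all 3 T cell genes were at 0 in both libraries. The part of cell composition in the snRNA differences was not tested, and in bulk libraries fewer cells of a type and less RNA per cell cannot be told apart.

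In the nucleus, the major spliceosome removes most introns with the help of 5 small RNAs. U1 pairs with the start of the intron, U2 with the branch point, and U4, U5 and U6 join as a preassembled particle in which U6 is released from U4 to take part in catalysis. U11, U12, U4atac and U6atac do the corresponding work for the rare minor introns, and U7, which the annotation also places in the snRNA biotype, is not spliceosomal but guides the trimming of histone mRNA ends. Most of these RNAs carry a short uridine-rich Sm site on which a ring of Sm proteins is assembled, while U6 and U6atac hold an Lsm ring at their 3′ end. Small RNA libraries catch pieces of these RNAs, not the whole molecules, so fragment levels are not levels of the snRNA itself.

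U2 gave the largest difference in RPM of the kinds. The following 6 fragments of it show the shared 3′ end at base 116 and the shifting 5′ end, in the 2 forms of the gene that differ at base 109 (G109C from the Rnu2-10 form to the Gm23444 form, counted from 1 at the first base of the copy). Capitals mark the Sm site, found as ATTTNT on the sense strand. This motif starts at base 99 of Rnu2-10 and occurs in 32 of the 54 annotated U2 transcripts (59.3%). Written 5′ to 3′ with the T of the files for U, they were:
U2 bases 90 to 116, Rnu2-10 form: attaaatggATTTTTggaagtaggagt
U2 bases 90 to 116, Gm23444 form: attaaatggATTTTTggaactaggagt
U2 bases 92 to 116, Rnu2-10 form: taaatggATTTTTggaagtaggagt
U2 bases 93 to 116, Rnu2-10 form: aaatggATTTTTggaagtaggagt
U2 bases 93 to 116, Gm23444 form: aaatggATTTTTggaactaggagt
U2 bases 95 to 116, Gm23444 form: atggATTTTTggaactaggagt

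The remaining sequences are the most abundant fragment of a kind, and a U2 fragment from near the 5′ end that holds the bases that pair with the branch point (capitals, GTAGTA, in 32 of 54 U2 transcripts, with no overlap with the Sm site). Those of U1 and U6 are not shown.
U2 bases 9 to 41: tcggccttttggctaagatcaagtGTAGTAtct
U4 bases 6 to 32: tgcgcagtggcagtatcgtagccaatg
U5 bases 8 to 32: ggtttctcttcagatcgtataaatc
U11 bases 109 to 132: tggtgatcgttggtcccggcgccc
U12 bases 117 to 151: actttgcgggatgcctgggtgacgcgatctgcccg
U4atac bases 87 to 111: gttagagctctgctttaccttggtg
U6atac bases 6 to 32: gtatgaaaggagagaaggttagcactc
U7 bases 43 to 62: acttcggtcggaaaacccct

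Each tag was given the position it has on the copy with the most reads among those it fits, and 97.6% to 100% of the reads of a kind lay on copies as long as the ones named here. These are Rnu1a1 for U1 (164 bases, chr11:87422867-87423030, plus strand), Rnu2-10 for U2 (191 bases, chr11:101658238-101658428, plus strand), Rnu5g for U5 (116 bases, chr9:65201726-65201841, minus strand), Rnu6 for U6 (107 bases, chr17:13432033-13432139, minus strand), Rnu11 (134 bases, chr4:132270080-132270213, minus strand), Rnu12 (151 bases, chr15:83149644-83149794, plus strand) and Rnu7 (62 bases, chr6:124741225-124741286, minus strand). No gene symbol names U4, U4atac or U6atac in this annotation, so Gm24265 (141 bases, chr5:115489459-115489599, plus strand), Gm22710 (125 bases, chr1:118459141-118459265, minus strand) and Gm25541 (126 bases, chr2:27539805-27539930, minus strand) were taken as these RNAs from their known sequence. The second U2 form is Gm23444 (chr11:83271498-83271688, plus strand), which fitted the same number of reads as Gm23472 (chr1:72236946-72237136, plus strand). The annotation holds 1383 snRNA transcripts, 958 of them of the U6 kind and 208 of the U1 kind, many of them near-identical or truncated copies. A fragment that fits several copies cannot be given to a locus: U2 bases 93 to 116 fitted 7 copies in the Rnu2-10 form and 4 in the Gm23444 form.

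In total, snRNA fragments made up 0.110% of the reads of Ia_high (18082 of 16388303) and 0.340% of those of Ia_low (46700 of 13739811), or 1103 and 3399 RPM. The ratio was 3.08 (2.96 to 3.21), and it was above 1 in each of the length classes when only reads of the same length were compared, at 2.40 for 18 to 20 nt, 3.48 for 21 to 24 nt, 2.53 for 25 to 30 nt and 2.74 for 31 to 44 nt. The length mix of the libraries differed, with a median of 23 nt over all reads of Ia_high and 25 nt over those of Ia_low, against 24 and 25 nt for snRNA fragments. Weighting Ia_high to the length mix of Ia_low gave 2.59 for the total. Counting distinct tags in place of reads gave 1.85 (1.72 to 1.99), above 1 but no longer called. Among other annotated RNAs the ratio was 2.46 (2.39 to 2.53) for rRNA, 1.60 for snoRNA, 1.61 for the miscellaneous class, 1.55 for mitochondrial RNA, 1.07 for scaRNA and 0.547 for miRNA hairpins. The snRNA interval therefore lay above those of these 6 classes, of which only rRNA was also called higher. Scaling to miRNA hairpin reads instead multiplies every ratio by 1.83, which takes the snRNA total to 5.63.

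**Figure D1:**
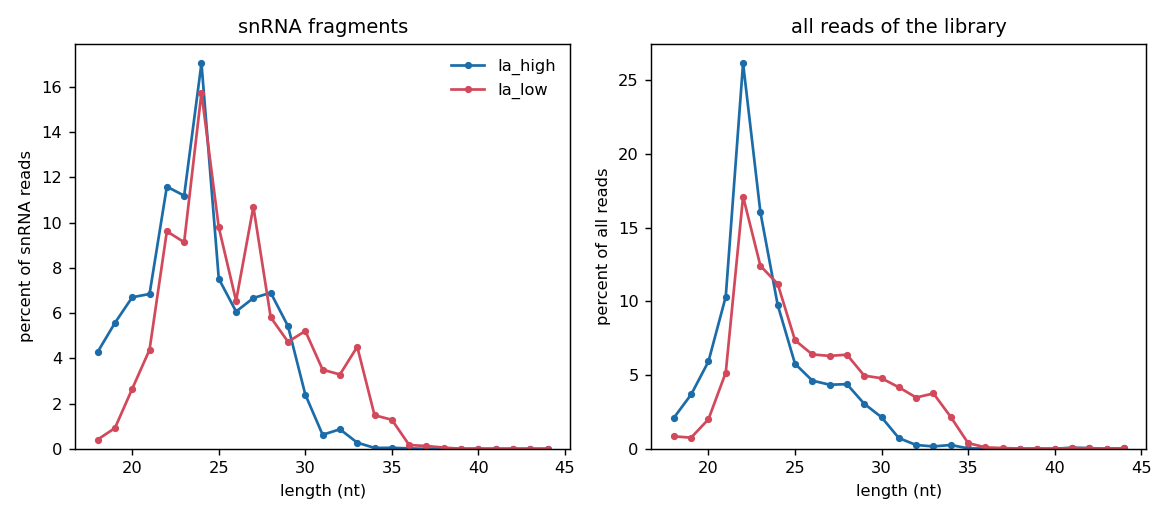
Percent of snRNA reads (left) and of all reads (right) at each length in nt, for the 1 library of Ia_high (blue) and of Ia_low (red). snRNA fragments peak at 24 nt in both libraries, with a further Ia_low peak at 27 nt, whereas all reads peak at 22 nt.

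U2 was the main source in both libraries, with 9089 reads (50.3% of snRNA reads) in Ia_high and 28557 (61.1%) in Ia_low. Its level was 555 and 2078 RPM, a ratio of 3.75 (3.55 to 3.96). U5, which holds the exon ends together, gave 2755 and 7063 reads (3.06, 2.76 to 3.39). U4, the partner that keeps U6 inactive, gave 821 and 2415 reads (3.51, 2.91 to 4.23). U1 gave 2972 and 5166 reads, a smaller ratio of 2.07 (1.86 to 2.31) that was 1.98 with the length weighting and 1.75 from distinct tags, under the 2-fold line. The intervals of U1 and U2 did not overlap, and the share of U1 among snRNA reads went from 16.4% (15.4 to 17.5) to 11.1% (10.2 to 11.9).

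U6 stood apart from its partners, with 670 and 746 reads and a ratio of 1.33 (1.01 to 1.74) that was not called. Its interval lay below that of U4, with which it is paired in the particle before catalysis. Of the minor spliceosome RNAs, only U12, which pairs with the branch point of minor introns, was called (263 and 1239 reads, 5.62, 4.16 to 7.66). Its ratio was called but lower at 18 to 30 nt (2.37), with the length weighting (3.35) and from distinct tags (2.16). U11 (458 and 630 reads, 1.64), U4atac (162 and 220, 1.62) and U6atac (620 and 445, 0.856) were not called. U7 gave 272 and 206 reads (0.903). U6atac and U7 were thus the kinds with a ratio below 1, and both moved above 1 when scaled to miRNA reads (1.56 and 1.65). With the length weighting U7 stood at 1.07, whereas U6atac stood at 0.684 (0.490 to 0.939). At 25 to 30 nt U6atac stood at 0.521 (0.321 to 0.820), and neither U6atac value was called. In all, 5 of 10 kinds were called higher and none lower in these libraries, and 2 tags with 13 reads were given to no kind.

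**Figure D2:**
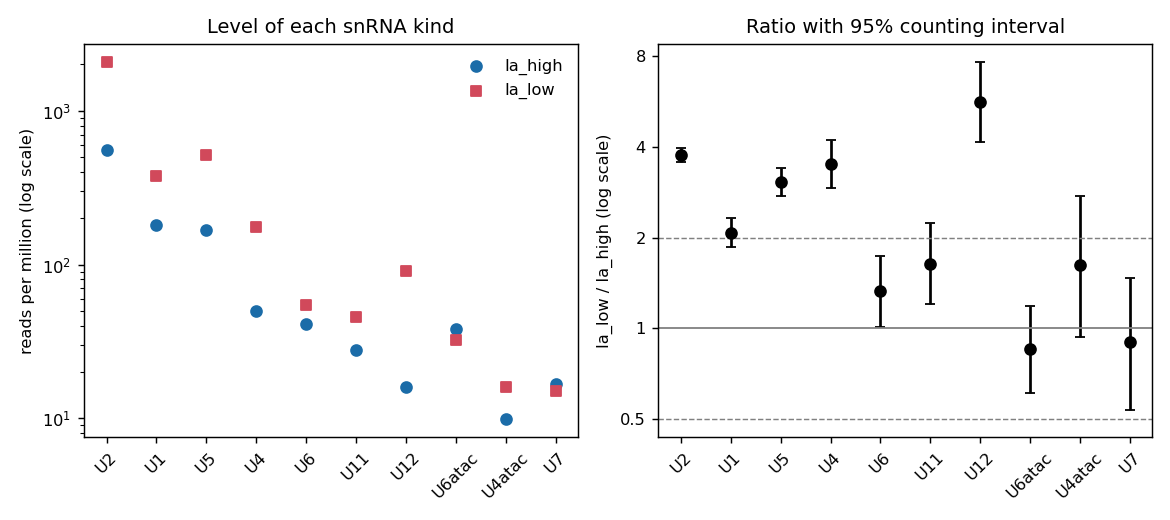
Left, level of each snRNA kind in RPM on a log scale, with circles for Ia_high and squares for Ia_low (1 library each). Right, their ratio on a log scale with the 95% counting interval; dashed lines mark 2-fold. U1, U2, U4, U5 and U12 lie above 2-fold, and U6, U6atac and U7 lie close to 1.

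At the level of single fragments, 20 snRNA tags had a mean of 10 RPM or more, 18 from U2 and 2 from U12, and all 20 were called higher in Ia_low. Of all 3361 tags of the libraries at that level, 29.0% were called higher and 25.6% lower. The background depends on length. Among tags of 21 to 24 nt it was 15.9% higher, against 8 of 8 snRNA tags, among those of 25 to 30 nt 37.7%, against 8 of 8, and among those of 31 to 44 nt 84.8%, against 4 of 4, a share near the background. Most of these snRNA tags of 21 to 24 nt and of 25 to 30 nt are overlapping forms of 1 U2 fragment with the end at base 116. They are therefore not separate members, and 9 of the 20 tags are left without that end. A tag could pass the mean through Ia_low alone, and most of the 20 did. They were under 10 RPM in Ia_high, as with U2 bases 92 to 116 in the Rnu2-10 form (0.671 against 86.0 RPM). For such tags the filter itself favours a call higher, and 3 of the 20 were at 0 in Ia_high. With a mean of 1 RPM or more, 424 snRNA tags entered and 197 (46.5%) were called higher and 3 lower, against a background of 27.0% and 6.50%. Among tags of 18 to 20 nt the background of calls lower in Ia_low was 23.2%, against 3 of 34 snRNA tags (8.82%).

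Those 3 tags, named after their values were seen, were all of 18 to 20 nt and from 3′ parts or the middle of the RNA. U1 bases 147 to 164, the last stem of U1, gave 137 reads in Ia_high and 27 in Ia_low (4.25-fold lower). U1 bases 72 to 90 gave 88 and 0 reads, at least 2.73-fold lower against a floor of 3 counts for the Ia_low library (27 reads, since its tags were most often read 9 times). U7 bases 43 to 62, the 3′ end of U7, gave 66 and 0 reads, at least 2.05-fold lower; this tag also fits a transcript of another biotype.

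The U2 fragments showed 1 dominant 3′ end. Base 116, which lies 12 bases after the last base of the Sm site, ended 3271 of the U2 reads in Ia_high (36.0%) and 13150 in Ia_low (46.0%), and base 93 was the most used start in both libraries. Reads covering the Sm site made up 51.9% and 57.9% of U2 reads, with coverage highest at base 113. A lower block over the branch point bases held 2057 and 5549 reads (3.22, 2.86 to 3.62). Little was seen of the outer ends: only 7 and 9 U2 reads started within 3 bases of the first base. The annotated U2 transcript runs to base 191, but the reads stopped mainly at 187 (93 and 619 reads, 7.94, and 4.06 with the length weighting).

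**Figure D3:**
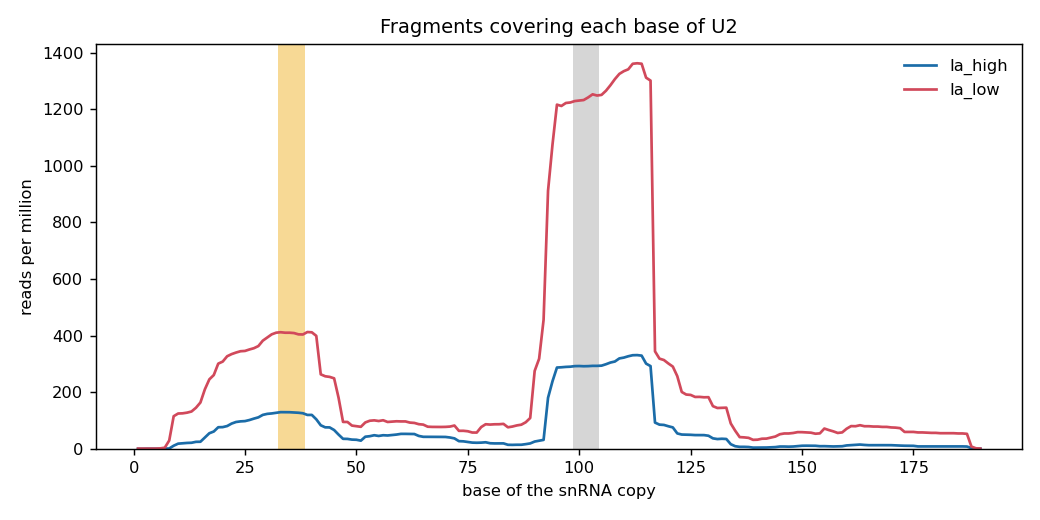
RPM of fragments covering each base of U2, counted from the first base of the copy, in Ia_high (blue) and Ia_low (red). The yellow band marks the branch point bases and the grey band the Sm site; the high block runs from about base 93 to its edge at base 116 in both libraries.

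The 5′ end of the base-116 fragments differed between the libraries. Starts at bases 93 to 95 gave 3142 reads in Ia_high and 8253 in Ia_low, a ratio of 3.13 (2.85 to 3.45) close to that of all snRNA. Starts at bases 90 to 92, which add up to 3 bases to the same fragment, gave 20 reads in Ia_high and 4418 in Ia_low. That is 1.22 against 322 RPM, a ratio of 263 (112 to 815). The longer forms thus made up 0.611% (0.199 to 1.42) of the base-116 reads in Ia_high and 33.6% (31.2 to 36.1) in Ia_low.

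The difference was seen at each of the 3 starts. Start 90 gave 9 and 2074 reads, start 91 gave 0 and 552 (at least 54.9-fold), and start 92 gave 11 and 1792. The neighbouring start 93 gave 1723 and 4640 reads, a ratio of 3.21. A step of 1 base, from start 92 to start 93, therefore separated a ratio of 194 (62.8 to 1048) from one of 3.21 (2.82 to 3.66).

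The length weighting gave 195 (92.6 to 496) for starts 90 to 92 and 3.28 for starts 93 to 95. U2 fragments of the same 25, 26 and 27 nt that ended elsewhere had ratios of 3.16, 2.32 and 3.21. Fragments that began at bases 90 to 92 and ended elsewhere gave 194 and 364 reads, a ratio of 2.24 (1.44 to 3.47). Starts 90 to 92 therefore had the large ratio with this end and not with other ends. Start 89 with this end was also called (3 and 100 reads, 39.8, 4.75 to 4905). The ratio varied with the start at another shared end too. Of U5 fragments ending at base 80, start 51 gave 0 and 63 reads (at least 6.26-fold) and start 53 gave 75 and 98 (1.56, 0.667 to 3.46). Without any fragment ending at base 116, U2 stood at 3.16 (2.94 to 3.39) and the snRNA total at 2.70 (2.58 to 2.83).

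**Figure D4:**
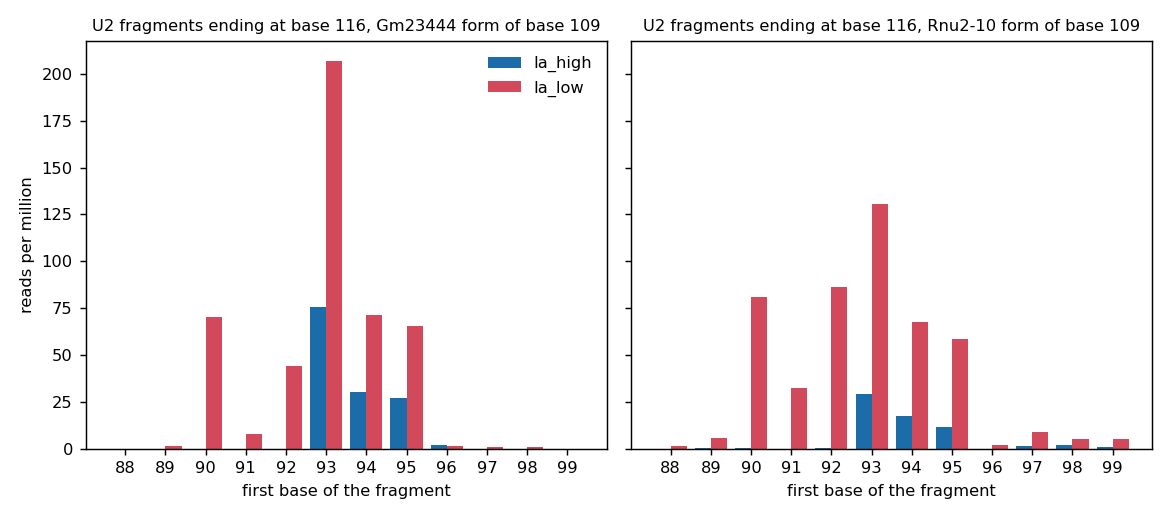
RPM of U2 fragments ending at base 116 by their first base, in Ia_high (blue) and Ia_low (red), for the Gm23444 form (left) and the Rnu2-10 form (right) of base 109. Starts 93 to 95 are filled in both libraries, whereas starts 90 to 92 are filled in Ia_low and near 0 in Ia_high in both forms.

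Both forms of U2 base 109 took part. In the Rnu2-10 form, the fragment of bases 90 to 116 gave 9 and 1112 reads (147, 42.6 to 1033) and that of bases 92 to 116 gave 11 and 1182 (128, 41.1 to 694). In the Gm23444 form the fragment of bases 90 to 116 gave 0 and 946 reads, at least 94.0-fold higher against a floor of 12 reads in Ia_high. The most abundant snRNA tag of all, bases 93 to 116 in the Gm23444 form, gave 1220 and 2789 reads (2.73, 2.32 to 3.20), and its Rnu2-10 counterpart gave 483 and 1797 (4.44, 3.52 to 5.61), and these 2 intervals do not overlap.

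Over all U2 reads that cover base 109, C was read in 53.3% (50.5 to 56.0) in Ia_high and 42.6% (40.4 to 44.8) in Ia_low. The direction differed between reads of up to 24 nt and longer reads. C went from 61.4% (58.3 to 64.4) to 49.9% (47.0 to 52.8) in reads of up to 24 nt, and from 24.03% (19.2 to 29.4) to 33.1% (30.0 to 36.3) in longer reads. Of the longer reads with C, base-116 fragments with starts 90 to 92 made up 0 of 273 in Ia_high and 1678 of 2617 in Ia_low. With either letter, these fragments made up 20 of the 1136 longer reads that cover the base in Ia_high and 4418 of 7907 in Ia_low. The opposite direction in longer reads was thus not shown apart from these fragments, since the shares without them were not computed. In the base-116 fragments C made up 67.7% (64.4 to 70.9) and 49.2% (46.7 to 51.8). Among fragments with other ends it was 29.3% (25.3 to 33.5) and 25.3% (21.8 to 29.1), and these intervals overlap. Even at starts 93 to 95 the share was 69.4% and 57.2%. Within Ia_low, C made up less of starts 90 to 92 (38.0%, 33.7 to 42.4) than of starts 93 to 95 (57.2%, 53.9 to 60.4). In both libraries, then, C made up more of the base-116 fragments than of the others.

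Of the U2 ends at bases 41, 116 and 187, the ratio at base 41 changed most with the length weighting. Bases 9 to 41, a fragment of 33 nt, gave 29 and 1100 reads (45.2, 21.6 to 113), and bases 8 to 41 gave 2 and 346 (206, with a lower bound of 20.9). One base shorter, bases 10 to 41 gave 91 and 68 reads (0.891). All reads of 33 nt were 23.7 times as frequent in Ia_low as in Ia_high, and with the length weighting bases 9 to 41 stood at 1.91, not called, and all fragments ending at base 41 at 1.01 against 4.68 without it. Bases 8 to 41, of 34 nt, stayed called at 24.7 (9.07 to 92.2). U2 fragments with further ends also stayed called, with bases 16 to 45 at 5.04, bases 19 to 46 at 4.65 and bases 93 to 122 at 5.35. The weighting put 2 U2 tags, bases 10 to 41 and bases 9 to 40 (33 and 18 reads), among those called lower.

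U12 fragments lay at different places along the RNA in the 2 libraries. Base 151, the last of the annotated transcript, ended 33 reads in Ia_high and 882 in Ia_low (31.9, 15.7 to 74.8), or 12.5% and 71.2% of U12 reads. In Ia_high the most used end was base 89, after the Sm site, with 126 reads against 74 in Ia_low (0.701, 0.282 to 1.54). The fragment of bases 117 to 151, of 35 nt, gave 1 and 318 reads (379, with a lower bound of 21.4, and 25.6 with the length weighting), and that of bases 120 to 151 gave 12 and 272 (27.0, 8.41 to 138). Since these are long fragments, the length weighting lowered the base-151 ratio to 3.99 (2.89 to 5.53), which was still called. Without base 151, U12 stood at 1.85 (1.20 to 2.82) and was not called.

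U5 reads lay in a block near the 5′ end and a block after the loop. Reads inside bases 8 to 45 numbered 1069 in Ia_high and 1922 in Ia_low, and those inside bases 50 to 80 numbered 828 and 2010. Coverage was highest after the loop in both libraries, at base 62 in Ia_high and base 72 in Ia_low. The most used end was base 32 in Ia_high (312 reads against 344 in Ia_low, 1.32) and base 80 in Ia_low (197 against 944, 5.72, 4.04 to 8.19). The most abundant U5 fragment, bases 8 to 32, gave 124 and 118 reads (1.14, 0.547 to 2.23); it also fits a transcript of another biotype. Loop 1 of U5, the bases that touch the exon ends (CTTTTAC, in all 11 U5 copies), was covered whole by only 14 and 167 reads (14.2, 4.46 to 64.7). U5 copies differ at base 71 (C71T from Rnu5g to Gm25099), and T was read in 19.7% (15.2 to 24.9) of the covering reads in Ia_high and 39.5% (35.0 to 44.1) in Ia_low. Single fragments had few reads and varied. Bases 53 to 80 gave 75 and 27 reads in the Rnu5g form and 0 and 71 in the Gm25099 form. Bases 55 to 78 gave 32 and 42 in the first and 20 and 37 in the second. Bases 57 to 80 gave 50 and 150 reads in the first form and 7 and 58 in the second, of which the 7 is under the floor of 12 reads:
U5 bases 57 to 80, Rnu5g form: gtggagaggaacaactctgagtct
U5 bases 57 to 80, Gm25099 form: gtggagaggaacaattctgagtct

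U4 fragments over the Sm site (ATTTNT, in 13 of 46 U4 transcripts) went from 32 to 335 reads, 12.5-fold (5.73 to 31.0), and 7.52 with the length weighting. The most abundant U4 fragment, bases 6 to 32, gave 39 and 120 reads (3.67, 1.49 to 9.40), near the ratio of U4 as a whole. In Ia_high the most used ends were bases 57 (78 reads) and 96 (76 reads), and in Ia_low base 96 led with 369 reads against 240 at base 57. Both ends were called higher (3.67 for base 57 and 5.79 for base 96). The annotated U4 copy stops at base 141, and 113 and 325 further reads that match U4 except for 3 final bases, ctg, are not counted in the U4 total.

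**Figure D5:**
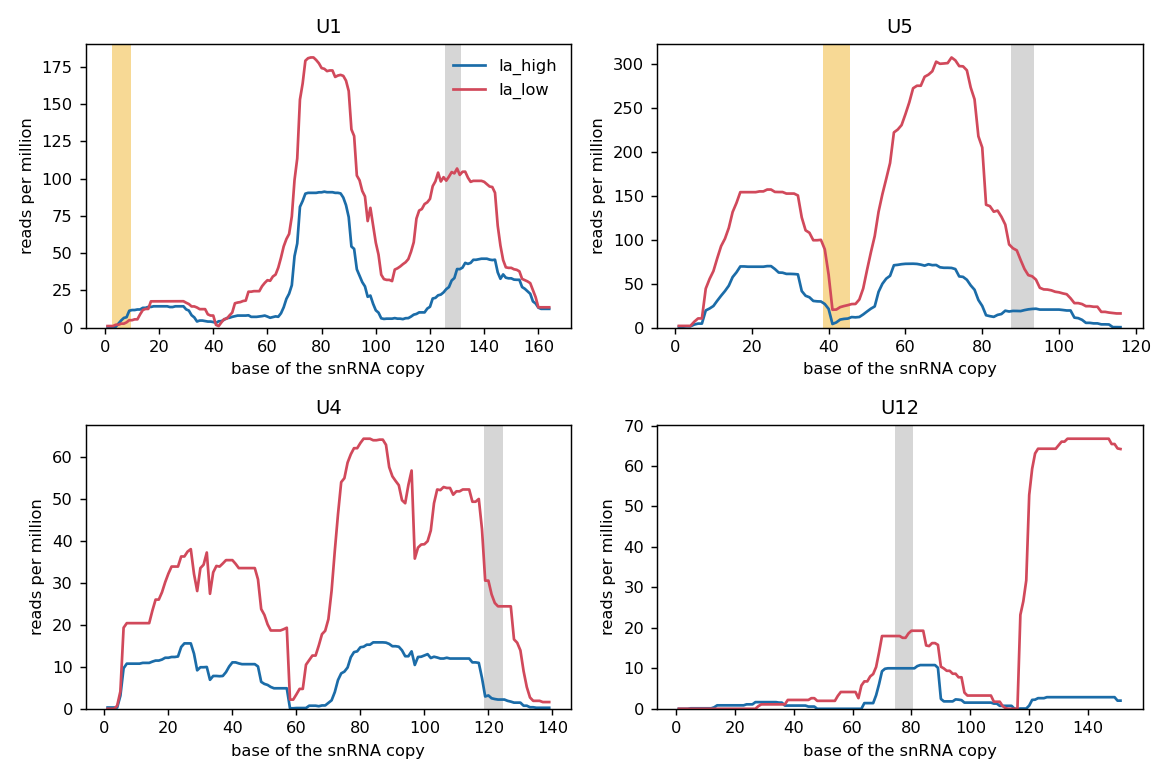
RPM of fragments covering each base of U1, U5, U4 and U12 in Ia_high (blue) and Ia_low (red), on separate linear axes. Grey bands mark the Sm site and yellow bands the splice site bases of U1 and loop 1 of U5; U12 coverage in Ia_low lies mostly after base 117, and in Ia_high around the Sm site.

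U1 fragments clustered away from the part that pairs with the intron. The bases ACTTACC, which pair with the 5′ splice site, were covered by 8 and 14 reads only. Base 72 was the most used start in both libraries (403 and 563 reads, 1.67, 1.20 to 2.31), and the most abundant U1 fragment, bases 72 to 92, gave 90 and 126 reads (1.67). Reads over the Sm site of U1 were called higher (403 and 1149, 3.40, 2.60 to 4.46), while reads lying inside bases 69 to 98 were not (1028 and 1242, 1.44, 1.16 to 1.78). Reads that fit an Rnu1b gene but not Rnu1a1 numbered 53 and 17, so U1 reads came mainly from sequence shared with or particular to Rnu1a1.

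U6 coverage was highest at base 47 in Ia_high, the last base of the motif ACAGAGA (bases 41 to 47), and at base 54 in Ia_low. This motif pairs with the 5′ splice site during catalysis, and 304 and 344 reads lay over it (1.35, 0.890 to 2.02). The most used start was base 41, the first base of that motif, in Ia_high (75 reads against 66 in Ia_low, 1.05) and base 9 in Ia_low (22 against 99, 5.37, 1.77 to 18.6, called higher). The most abundant U6 fragment, bases 41 to 65, gave 43 and 66 reads. Fragments ending within 3 bases of the 3′ end of U6, which binds the Lsm ring, gave 141 and 38 reads, 3.11-fold lower in Ia_low (interval of the ratio 0.0868 to 0.879). The form of 24 nt, bases 84 to 107, gave 36 and 30 reads (0.994), whereas that of 20 nt, bases 88 to 107, gave 47 and 0. Reads of 20 nt as a whole stood at 0.338. The 3′ end of U7 was also called lower, with 86 and 9 reads, 8.01-fold. Neither call held with the length weighting, which gave 0.473 (0.125 to 1.35) for U6 and 0.339 (0.00764 to 2.54) for U7, or when scaled to miRNA reads, at 0.587 (0.158 to 1.61) and 0.228 (0.00552 to 1.41). U11 fragments at the 3′ end were called higher (108 and 260 reads, 2.87, 1.64 to 5.04).

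The remaining minor RNAs had few reads. The most abundant U11 fragment, bases 109 to 132, gave 65 and 22 reads (0.404, 0.0596 to 1.55), whereas starts at base 109 as a whole gave 73 and 87. U4atac bases 87 to 111 gave 6 and 18 reads, and U4atac starts at base 87 gave 14 and 34; this fragment also fits a transcript of another biotype. U6atac bases 6 to 32 gave 127 and 105 reads (0.986, 0.458 to 1.98), with base 6 the most used start (203 and 105 reads). U7 starts were most frequent at base 22 (9 and 68 reads) and at base 43 (66 and 0).

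Over all kinds, 95.2% of snRNA reads in Ia_high and 95.8% in Ia_low lay inside the RNA, more than 3 bases from either annotated end. The U2 reads that stop at base 187 of 191 (93 and 619) are thus counted as inside. Fragments at the 3′ end gave 687 and 1773 reads (3.08, 2.50 to 3.80, but 1.37 and not called at 18 to 30 nt) and those at the 5′ end 184 and 190 (1.23, 0.699 to 2.10). U12 alone gave 47 and 899 of the 3′-end reads (22.8, 12.4 to 46.0). At this end U2 (3.97), U5 (4.83) and U11 (2.87) were also called higher. U1 (1.08) and U4 (4 and 22 reads, 6.56) were not called, and U6 and U7 were called lower. The U4 value leaves out the 113 and 325 reads with the final bases ctg. The 5′-end class was the 1 class of 3 that was not called, but it was called when scaled to miRNA reads (2.25, 1.28 to 3.84). Its interval lay below that of the 3′-end class over all lengths. The intervals overlapped at 18 to 30 nt, at 25 to 30 nt and from distinct tags. They also overlapped with tags seen in both libraries and with tags that fit a gene named Rnu. U6atac alone gave 102 and 101 of the 5′-end reads.

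The mRNAs of the proteins that build these particles gave no call in the direction of the fragments. Of 79 listed genes 57 had 10 or more mRNA fragments (distinct tags of 20 to 30 nt that fit 1 protein-coding gene, of 324042 in Ia_high and 133324 in Ia_low). None was called higher and 2 were called lower, and the median log2 ratio was -0.24 against -0.13 over all 7007 genes measured, of which 6.11% were called higher and 8.36% lower. The 2 were Snrpb2, the U2 protein B″, with 17 and 0 fragments (at least 2.33-fold lower), and Ints4, a subunit of the Integrator complex that cuts snRNA precursors, with 26 and 3 (3.57-fold lower).

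The most abundant measured members of each group lay within 2-fold or had intervals that include 1. Sf3b1, which holds the branch point in the U2 particle, gave 343 and 155 fragments, or 1059 and 1163 per 1000000 mRNA fragments (1.10, 0.903 to 1.33). Sf3b3, of the same complex, gave 108 and 26 (0.585, 0.366 to 0.905). Prpf8, the core scaffold of U5, gave 216 and 68 (0.765, 0.574 to 1.01), and Snrnp200, the helicase that unwinds U4 from U6, gave 76 and 32 (1.02). For U1, Snrnp70 gave 23 and 8 fragments and Snrpa 18 and 9. Among the tri-snRNP proteins, Sart1 gave 21 and 6 and Snu13 22 and 5.

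The ring proteins were also sparse. Snrpb (23 and 16 fragments) and Snrpd1 (25 and 14) led the Sm ring, and Lsm4 (7 and 7) and Lsm6 (17 and 2) the Lsm ring. The 4 measured genes of the Lsm ring had a median log2 ratio of -2.22, the lowest of the 8 lists, with Lsm4 at 2.43 (0.727 to 8.12), Lsm6 at 0.286 (0.0320 to 1.20) and both Lsm3 and Lsm8 (15 and 1 each) at 0.162 (0.00385 to 1.05), and none was called. For the minor spliceosome, Zrsr2, which recognises the 3′ splice site of minor introns, gave 11 and 11 and Rnpc3 11 and 5. Of the assembly and processing genes, the Integrator subunit Ints6 gave 45 and 19 (1.03, 0.567 to 1.79) and Tgs1, which makes the trimethyl cap, 27 and 11. At this depth, differences within these intervals were not detectable.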

How the data were processed

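Each deposited file gives, for 1 small RNA library, the counts of reads of every distinct tag, which the authors deposited as whole numbers without scaling. Per the labels' protocols, total RNA came from a mirVana kit, small RNA under 30 bases was cut from a polyacrylamide gel and joined to adaptors at its ends, and 12 cycles of amplification gave a product near 90 bp that was read on a Solexa sequencer. Read trimming, filters and any genome build used upstream were not given in the sources used here.

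Tags were matched without mismatch to GENCODE M21 transcripts (Python 3.11.15). Kinds were assigned by aligning snRNA transcripts to a named copy of each kind (blastn 2.17.0, word size 7). No tag was removed by a named hairpin. 25 tags fitted unnamed transcripts of the miRNA biotype and were kept, and 433 tags (14.6% and 9.94% of snRNA reads) also fitted other biotypes. Before exact intervals were computed, counts were divided by 4 in Ia_high and 9 in Ia_low, the read number that tags most often had (tags read once apart), with scipy 1.17.1, and 0 was bounded with a floor of 3 such counts (12 and 27 reads, or 0.732 and 1.97 RPM). The ratio and call steps were tested on simulated data.

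Named fragments are the most abundant tag and start of each kind, the 10 most abundant tags, and the 5 highest and 5 lowest ratios among tags at a mean of 10 RPM or more. Named protein genes are the 2 most abundant of each group and those called. Further fragments are named where a position or variant was described. The members, lists, marker genes and rules were chosen with earlier results of these data known.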

Additional observations from a re-analysis of the deposited data

Results flagged for a closer look

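Reads in the antisense direction of an snRNA transcript are outside the comparisons above, and the sequence data hold a few of them. They amounted to 52 tags with 278 reads in Ia_high and 150 in Ia_low, against 18082 and 46700 sense reads, and both exceed the floor of 3 counts (12 and 27 reads). The order between the libraries is opposite to that of the sense reads, and it was not tested.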

How the results depend on the processing

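The snRNA total stayed above 1 in all 11 alternatives, between 1.85 and 5.63. It was 5.63 when scaled to miRNA hairpin reads, 1.85 from distinct tags in place of reads, 3.25 without tags that fit other annotated transcripts, 2.53 at 25 to 30 nt, and 2.92 with tags seen in both libraries. In 2 alternatives added after the data were seen, the length weighting gave 2.59 and leaving out U2 fragments ending at base 116 gave 2.70. The number of kinds called higher, 5, was 8 when scaled to miRNA hairpin reads and 4 to 6 elsewhere; in all 11 alternatives U2, U5 and U12 were among them. The 2 end classes called higher became 0 from distinct tags, 1 at 18 to 30 nt and 3 when scaled to miRNA hairpin reads.

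The 20 of 20 tested tags called higher became 129 of 156 when scaled to miRNA hairpin reads and 197 of 424 at a floor of 1 RPM. They became 3 of 3 at a floor of 50 RPM and 9 of 9 without the base-116 fragments. Over all tags the share called higher was 29.0% at 10 RPM and 27.0% at 1 RPM. It was not computed with miRNA scaling or at 50 RPM. The 0 called lower became 1 of 40 at 25 to 30 nt, 3 of 424 at a floor of 1 RPM and 2 of 22 with the length weighting. Over all tags the share called lower was 25.6% at 10 RPM and 6.50% at 1 RPM. Of the protein genes called lower, 2, reads in place of fragments gave 5 and a floor of 30 fragments gave 0 of 20 measured. Of the values for single kinds and end classes, 94 kept within the counting interval of the value reported and 47 did not, and none that had been called changed direction. Why these values moved was not tested. U4atac, U6atac, U7 and 5′-end values rest on few reads. No paired analysis was possible because each group is 1 library.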
